A study of Gallus gallus with 12 samples.

Results

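The genes described here are 6 bone morphogenetic protein (BMP) ligands (BMP2, BMP3, BMP4, BMP5, BMP6 and BMP7), 3 BMP receptors (BMPR1A, BMPR1B and BMPR2) and the secreted BMP antagonist GREM1. They were taken by exact symbol, and all 10 were among the 12470 named genes of the table. Ovarian follicles of 6 laying hens aged 12 months were sequenced. Every hen gave 1 follicle from before recruitment (Pre-recruitment) and 1 pre-ovulatory follicle called F5, so each stage held 6 libraries from the same 6 birds. The labels name neither a strain nor a treatment. The comparison made was F5 against Pre-recruitment, read from a fit over all genes.

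BMPs are secreted dimers of the transforming growth factor beta superfamily. A dimer binds type I receptors such as BMPR1A and BMPR1B together with a type II receptor such as BMPR2, which then activates the type I kinase. The type I kinase phosphorylates SMAD1, SMAD5 and SMAD9, and these enter the nucleus with SMAD4 to regulate genes such as the ID family. Antagonists such as GREM1, NOG and CHRD bind the ligands outside the cell and keep them from their receptors. In the ovary of birds and mammals, BMPs pass between the oocyte, the granulosa cells around it and the theca layer outside them, and they modulate steroid synthesis and the response to gonadotropins. In hens, recruitment moves a small follicle into the graded series of yolk-filled follicles.

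Counts assigned to named genes were 20628640 to 29082988 in each Pre-recruitment library and 28044247 to 40887647 in each F5 library. Levels are given as CPM, the count scaled to library size with TMM factors, and are compared only within a gene, since gene length is not corrected. The quasi-likelihood test of edgeR covered 11195 genes and called 65.5% of them with a false discovery rate (Benjamini-Hochberg) under 0.05, 32.9% higher and 32.6% lower in F5 follicles. Cell type markers also moved between the stages. Of 10 granulosa markers 8 fell and none rose, with a summed level of 1752 to 2420 CPM before recruitment and 566 to 922 CPM in F5 follicles. AMH, the highest of them, had means of 691 and then 30.4 CPM and so weighs heavily in the fall of that sum. Of 9 tested oocyte and germ cell markers 8 fell and none rose, with a summed level of 203 to 363 CPM and then 3.65 to 54.0 CPM. Most of that sum before recruitment was ZP2, with means of 196 and then 11.9 CPM. All 9 smooth muscle markers rose, from 3430 to 8243 CPM in sum before recruitment to 13767 to 29344 CPM, and all 7 fibroblast and stroma markers rose, from 20806 to 30470 CPM to 39505 to 51424 CPM. Endothelial markers summed to 616 to 718 CPM before recruitment and 680 to 758 CPM in F5 follicles (4 of 8 higher, 2 lower), theca markers to 3032 to 4423 CPM and 2968 to 4950 CPM (2 of 6 higher, 2 lower), and leukocyte markers to 425 to 847 CPM and 454 to 644 CPM (none of 5 called). Surface epithelium markers summed to 109 to 172 CPM before recruitment and 185 to 250 CPM in F5 follicles, without overlap (1 of 3 higher, 1 lower). Nearly all of that sum was KRT18, at means of 140 and 221 CPM, so the rise of the sum was that of 1 gene. Erythroid markers summed to 75 to 187 CPM and 38.7 to 273 CPM (none of 4 called), and neural markers to 12.1 to 30.6 CPM and 7.27 to 15.4 CPM (1 of 3 lower). Under 1 CPM in all libraries were DDX4 (germ cell), CD79B (leukocyte), HBE and HBE1 (erythroid), DBH (neural), and UPK3B (surface epithelium) was at 0 in all of them. Granulosa, theca, smooth muscle, stroma and endothelial lists had no such marker. In tissue of several cell types, fewer cells of a type and less RNA per cell cannot be told apart, and the part of these markers in the BMP gene changes was not tested.

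Among the BMP genes, 3 ligands rose and 2 receptors fell in F5 follicles. BMP5 rose 2.41-fold, BMP4 1.44-fold and BMP2 1.36-fold, while BMPR1B fell 2.36-fold and BMPR2 2.03-fold. BMP3, BMP6, BMP7 and BMPR1A did not pass the test, and GREM1, which had too few counts for the low-count filter, stood higher in every F5 library than in any Pre-recruitment library. The 5 of 9 tested genes that changed compare with the 65.5% of all genes, so the share of changed genes is no feature of the set. The median log2 change of the 9 was 0.12, against 0.02 over all genes tested. Stages did not overlap for 3 of the 9 (BMP5, BMPR1B and BMPR2), against 43.5% of all genes, and 4 of the 9 moved the same way in 6 of 6 birds, against 62.1% of all genes.

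**Figure D1:**
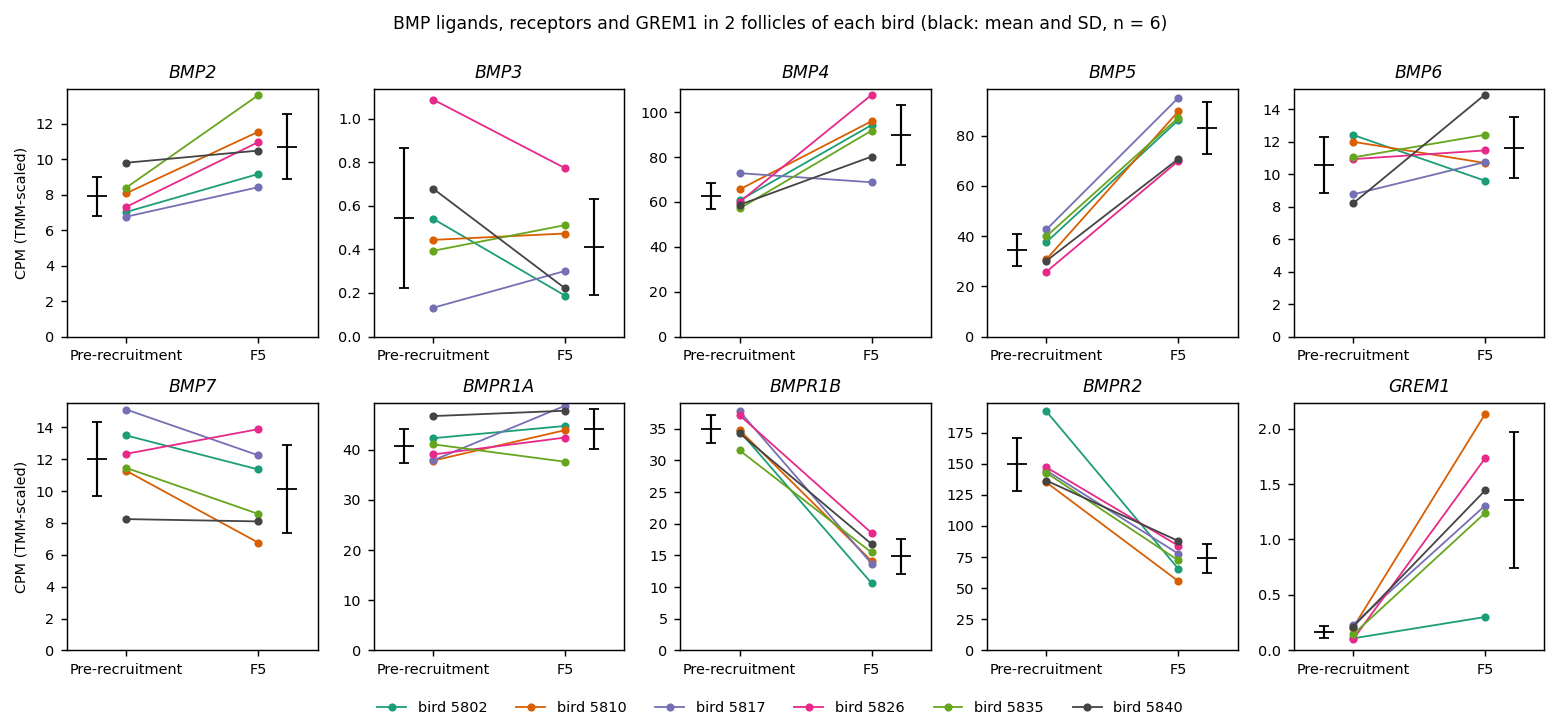
TMM-scaled CPM (vertical axes, starting at 0) of the 10 BMP genes in the Pre-recruitment and F5 follicle of each bird, with 1 coloured line per bird and the mean and SD of 6 libraries in black. BMP5 and GREM1 are higher in F5 follicles in every bird without overlap of the stages, BMPR1B and BMPR2 are lower in every bird without overlap, and lines of BMP3, BMP6 and BMP7 cross.

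BMP5, a close relative of BMP6 and BMP7, had the largest change among the 6 ligands. Its level before recruitment ran from 25.8 through a median of 34.2 to 42.6 CPM, and in F5 follicles from 69.9 through 86.7 to 95.1 CPM. Every F5 library therefore lay above every Pre-recruitment library, and bird 5817 was the highest and bird 5826 the lowest of both stages. The means were 34.5 ± 6.54 and 83.1 ± 10.4 CPM (mean ± SD, n = 6), a log2 change of 1.27 (SE 0.12, adjusted p = 1.03e-06 by edgeR). The difference within a bird was even across hens, from 1.12 in bird 5835 to 1.54 in bird 5810 on the log2 scale.

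BMP4 and BMP2, close relatives that bind BMPR1A and BMPR1B with high affinity, rose less. BMP4 ran from 57.1 through 60.4 to 72.8 CPM before recruitment and from 68.8 through 93.0 to 108 CPM in F5 follicles. The stages overlapped by bird 5817 alone, whose Pre-recruitment level was the highest of its stage and whose F5 level was the lowest. Its within-bird log2 difference was -0.08, while the other 5 birds rose, up to 0.84 in bird 5826. The fitted log2 change was 0.52 (SE 0.10, adjusted p = 3.36e-04 by edgeR), from 62.5 ± 5.81 to 89.8 ± 13.6 CPM (mean ± SD, n = 6).

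BMP2 ran from 6.77 through 7.71 to 9.81 CPM before recruitment and from 8.43 through 10.7 to 13.6 CPM in F5 follicles. The ranges overlapped, yet the F5 follicle was the higher one in 6 of 6 birds, by 0.10 on the log2 scale in bird 5840 and by up to 0.69 in bird 5835. The log2 change was 0.44 (SE 0.13, adjusted p = 0.0084 by edgeR), from 7.91 ± 1.12 to 10.7 ± 1.84 CPM (mean ± SD, n = 6). The annotated spans of BMP2, BMP3, BMP6 and BMPR2 overlap other genes in the RefSeq table of another build (GRCg7b), and whether reads were shared with them was not measured. Scaling by library totals alone moved the median log2 change of all genes to -0.21, and BMP2 then stood at 0.20 with an edgeR adjusted p of 0.207. The rise of BMP2 is therefore one relative to the typical gene.

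The other 3 ligands did not pass the test. BMP6, which in hens is known to raise FSH receptor mRNA in cultured granulosa cells, ran from 8.20 through 11 to 12.4 CPM before recruitment and from 9.59 through 11.1 to 14.9 CPM in F5 follicles. Its log2 change was 0.14 with a 95% interval from -0.14 to 0.42 (adjusted p = 0.356 by edgeR). It was higher in F5 in 4 birds and lower in 2, and its sign turned without bird 5840 (0.00 to 2 decimals, -0.0036) and under library totals (-0.09).

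BMP7, a theca ligand in rodents, ran from 8.24 through 11.9 to 15.1 CPM before recruitment and from 6.76 through 9.96 to 13.9 CPM in F5 follicles. It was lower in F5 in 5 of 6 birds, with a log2 change of -0.24 and an interval from -0.63 to 0.15 (adjusted p = 0.255 by edgeR, and 0.0716 with the bird as a block). BMP3, which can act against other BMPs in mammalian bone, had few counts, 4 to 33 per Pre-recruitment library and 5 to 21 per F5 library. It split evenly over the birds, and its log2 change of -0.39 had an interval from -1.34 to 0.55 (adjusted p = 0.449 by edgeR). At this depth a fall of 1 log2 unit lay inside that interval.

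Receptors did not move together. BMPR1B, the type I receptor whose variant raises ovulation rate in sheep, ran from 31.6 through 34.7 to 37.7 CPM before recruitment and from 10.6 through 14.8 to 18.5 CPM in F5 follicles. The lowest Pre-recruitment library was well above the highest F5 library. BMPR1B fell from 35.0 ± 2.21 to 14.9 ± 2.74 CPM (mean ± SD, n = 6), a log2 change of -1.24 (SE 0.11, adjusted p = 5.09e-07 by edgeR). The fall was deepest in bird 5802 (-1.70 on the log2 scale) and shallowest in bird 5826 (-1.0). In the same libraries 8 of 10 granulosa markers fell, and the F5 libraries with the lowest and highest granulosa sums (566 CPM in bird 5802 and 922 CPM in bird 5826) were also those with the lowest and highest BMPR1B. This match did not hold before recruitment. There BMPR1B was lowest in bird 5835 and highest in bird 5817, whose granulosa sums were 1955 and 1876 CPM. The lowest and highest sums of that stage were those of birds 5810 (1752 CPM) and 5826 (2420 CPM).

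BMPR2, the main type II receptor for BMPs, ran from 135 through 144 to 192 CPM before recruitment and from 55.6 through 75 to 87.9 CPM in F5 follicles. The stages did not overlap, and the Pre-recruitment follicle of bird 5802 stood apart from the other 5, which lay between 135 and 147 CPM. BMPR2 fell from 150 ± 21.3 to 73.9 ± 12.0 CPM (mean ± SD, n = 6), a log2 change of -1.02 (SE 0.11, adjusted p = 3.79e-06 by edgeR). Without that library the log2 change was -0.96 (adjusted p = 5.76e-06 by edgeR). Within birds the difference ran from -1.55 in bird 5802 to -0.63 in bird 5840.

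BMPR1A, the type I receptor for BMP2 and BMP4 that most cells carry, was close to level. It ran from 37.8 through 40.1 to 46.7 CPM before recruitment and from 37.6 through 44.3 to 48.8 CPM in F5 follicles, which overlap over nearly their whole range. The log2 change was 0.12 with an interval from -0.05 to 0.28 (adjusted p = 0.189 by edgeR), and it was -0.12 under library totals. An increase beyond 0.28 or a decrease beyond 0.05 on the log2 scale lay outside that interval. The interval holds for TMM scaling only, and the value under library totals lay outside it.

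GREM1, a cystine-knot antagonist that binds BMP2, BMP4 and BMP7 and is a cumulus cell target of GDF9 in mice, had 3 to 7 counts per Pre-recruitment library and 8 to 63 per F5 library. It did not pass the low-count filter. In CPM it ran from 0.099 through 0.174 to 0.231 before recruitment and from 0.301 through 1.37 to 2.13 in F5 follicles. The F5 follicle of bird 5802, with 8 counts, was near the Pre-recruitment range, and the other 5 F5 libraries lay at 1.24 CPM or more. The difference of mean CPM was 1.19, and the exact permutation p, two-sided, was 0.00216 over the 924 assignments of libraries to stages, the smallest they can give. These assignments do not pair the birds. Exact sign changes within 6 birds can give no p-value below 0.03125. Without the filter, edgeR gave a log2 change of 3.01 (SE 0.41, adjusted p = 2.13e-05 over 12362 genes), about 8.03-fold. At these counts the size of the rise is imprecise. The F5 library of bird 5802 also had the lowest granulosa, oocyte, stroma, endothelial, leukocyte and erythroid marker sums of its stage.

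Ratios between 2 genes of the same library do not depend on library scaling, and gene length cancels in their change between stages. Of 6 ratios examined, 5 changed by an exact two-sided permutation test with Benjamini-Hochberg adjustment over the 6. No share over other gene pairs was computed, and 65.5% of all single genes were called. This count alone therefore marks no feature of the set. The permutation test does not pair the birds. Exact sign changes within birds gave p = 0.0312 for each of the 6 ratios, the smallest that 6 birds allow. The log2 ratio of BMPR1B to BMPR1A counts ran from -0.45 to -0.01 in the earlier stage, against -2.08 to -1.19 in the F5 stage. It dropped by 1.37 on average (SE 0.15), 2.58-fold, in 6 of 6 birds (exact permutation p = 0.00216, adjusted 0.00649). Relative to BMPR2, BMPR1A was higher in F5 follicles by 1.14 (SE 0.13, exact permutation p = 0.00216, adjusted 0.00649), also in 6 of 6 birds. The ratio of BMPR1B to BMPR1A therefore differed between stages without any overlap. BMPR1A itself was close to level (log2 change 0.12). Both shifts thus restate the falls of BMPR1B (-1.24) and BMPR2 (-1.02) described above.

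The ratio of BMPR1B to BMPR2, the receptors that both fell, changed much less. Its log2 value ran from -2.47 to -1.94 in the earlier stage, against -2.63 to -1.98 in the F5 stage, ranges that largely coincide. The difference was -0.23 (SE 0.13), lower in 6 of 6 birds, with an exact permutation p of 0.108 that did not pass. Exact sign changes within birds gave p = 0.0312, the smallest that 6 birds allow, so this small shift passed when birds were paired. Without bird 5802 the unpaired exact permutation test passed as well (adjusted p = 0.0476). Bird 5802 had the lowest value of either stage.

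Ratios of BMP4 and BMP2 to the antagonist GREM1 were lower in F5 follicles. BMP4 and BMP2 themselves rose, so both falls restate the larger rise of GREM1. GREM1 had only 3 to 7 counts per Pre-recruitment library, so the size of both falls is imprecise. No ratio to another antagonist was computed, and NOG and FST, described below, fell where BMP4 and BMP2 rose. Of 20 other antagonists and modulators tested, 8 were higher and 7 lower in F5 follicles. The log2 ratio of BMP4 to GREM1 counts went from 8.46 ± 0.42 to 6.22 ± 1.002 and that of BMP2 to GREM1 from 5.48 ± 0.45 to 3.15 ± 0.90 (mean ± SD, n = 6). Both were lower in 6 of 6 birds (exact permutation p = 0.00649 and 0.00433, both 0.00779 after adjustment). BMP7 to BMP4 moved from -2.40 ± 0.24 to -3.17 ± 0.46, lower in 6 of 6 birds (exact permutation p = 0.00649, adjusted 0.00779). That shift includes the rise of BMP4 (log2 change 0.52). BMP7 alone did not pass the test (-0.24), and the ratio does not show a change of BMP7 by itself.

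**Figure D2:**
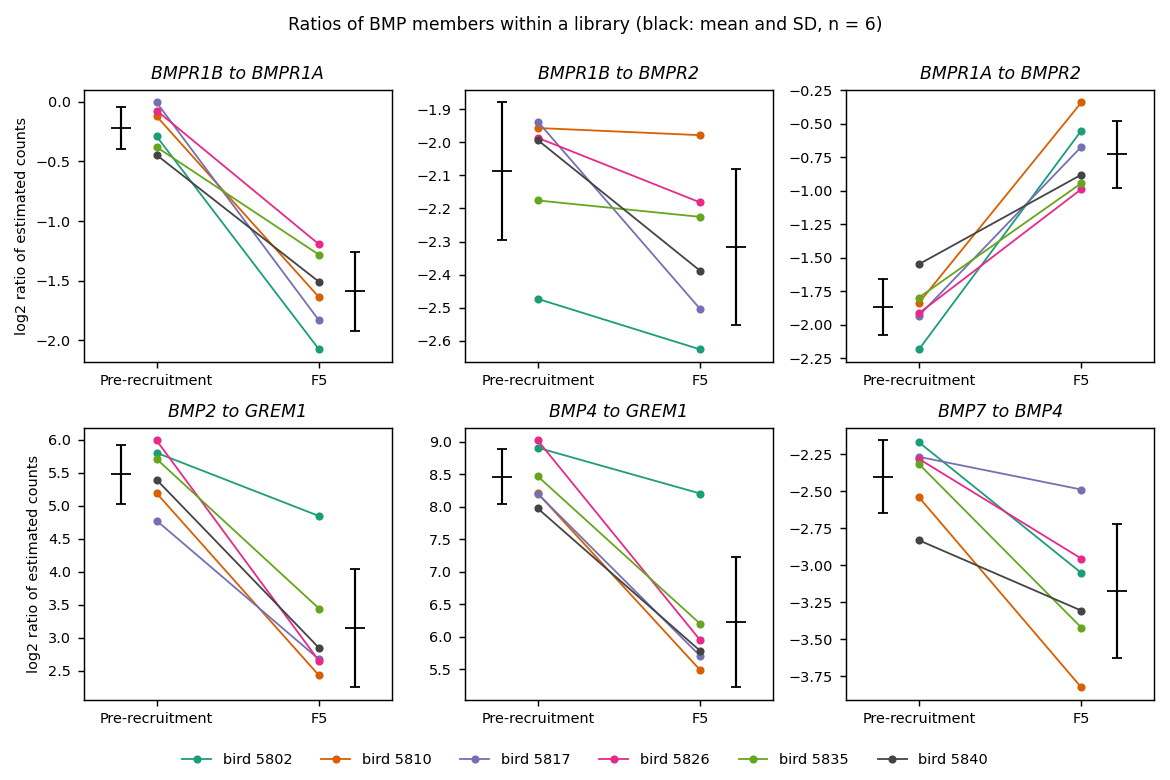
The log2 ratio of estimated counts of 2 BMP genes within a library (vertical axes, each on its own scale) in the Pre-recruitment and F5 follicle of each bird, with 1 coloured line per bird and the mean and SD of 6 libraries in black. BMPR1B to BMPR1A lies between -0.45 and -0.01 before recruitment and between -2.08 and -1.19 in F5 follicles, and the F5 follicle of bird 5802 is far above the others in the BMP4 to GREM1 ratio.

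Birds of 1 stage varied to different degrees in different members. The within-stage SD of log2 CPM over all genes tested had a median of 0.17 before recruitment and 0.18 in F5 follicles. BMPR1A, at 0.12 and 0.13, was below these medians in both stages, and BMPR1B was among the steadier genes before recruitment (0.09) but not in F5 follicles (0.28). BMP7 varied more than the median gene in both stages (0.30 and 0.40). The widest spreads belonged to the genes with the fewest counts, BMP3 (0.84 and 0.66) and GREM1 (0.36 and 0.91), where counting error adds to the spread between birds.

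Profiles close to those of the 3 members with the largest changes were sought among 9491 other genes by the root mean square difference of gene-centred log2 CPM over the 12 libraries. The gene nearest to BMPR1B was SMAD7B, an inhibitory SMAD gene of the chicken, at a difference of 0.08 log2 units, followed by FAM210A (0.11) and PLCL1 (0.12). SMAD7B fell 2.24-fold, from 32.1 ± 3.17 to 14.3 ± 2.80 CPM (n = 6, SD, adjusted p = 2.63e-06 by edgeR), and like BMPR1B it was lowest in the F5 follicle of bird 5802 and highest, within F5, in that of bird 5826. Nearest to BMPR2 was IGF1R, the receptor for insulin-like growth factors (0.11), then CACFD1 and SEMA6D (both 0.15). Nearest to BMP5 were ENDOD1 (0.12), the G protein alpha subunit gene GNAQ (0.13) and the DNA repair gene XPA (0.14). With this many candidates close profiles are found for many genes, and these distances are descriptive.

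The rest of the BMP pathway was followed with 82 further genes. The table held 72, and 66 passed the low-count filter. Of these, 29 were higher and 19 lower in F5 follicles, and 18 did not pass the test. Over all genes 32.9% were higher and 32.6% lower, so most genes of either kind changed, and the median log2 change was 0.24 in the list against 0.02 over all genes. Of 6 other ligands tested 2 rose and 3 fell, beside the 65.5% of all genes called. BMP15 and GDF9, ligands made by the oocyte, both fell, in company with the oocyte markers. BMP15 ran from 17.8 through 24.0 to 30.9 CPM before recruitment and from 0.0376 through 2.40 to 5.49 CPM in F5 follicles, a log2 change of -3.46 (SE 0.59, adjusted p = 1.72e-04 by edgeR). GDF9 went from 12.96 ± 2.76 to 2.99 ± 2.42 CPM (n = 6, SD, with a log2 change of -2.12, adjusted p = 0.00262 by edgeR). Both ligands were lowest in the F5 follicles of birds 5802 (0.0376 CPM of BMP15 and 0.602 of GDF9) and 5835 (0.135 and 0.269 CPM), the libraries whose oocyte marker sums were also the lowest (3.65 and 5.74 CPM). GDF3 fell 2.31-fold. The annotated span of GDF3 overlaps CERS1 in GRCg7b, and those of other pathway genes, such as ACVR1 and ENG, also overlap genes. Whether reads were shared was not measured. GDF10, a relative of BMP3, rose 2.79-fold from 2.44 ± 1.01 to 6.84 ± 3.95 CPM (n = 6, SD, adjusted p = 0.00206 by edgeR), and GDF7 rose 2.28-fold at under 1.3 CPM. GDF2, also called BMP9 and a ligand of ACVRL1, stood at 0.464 and 1.13 CPM, with an edgeR adjusted p of 0.0535, or 0.00445 with the bird as a block.

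**Figure D3:**
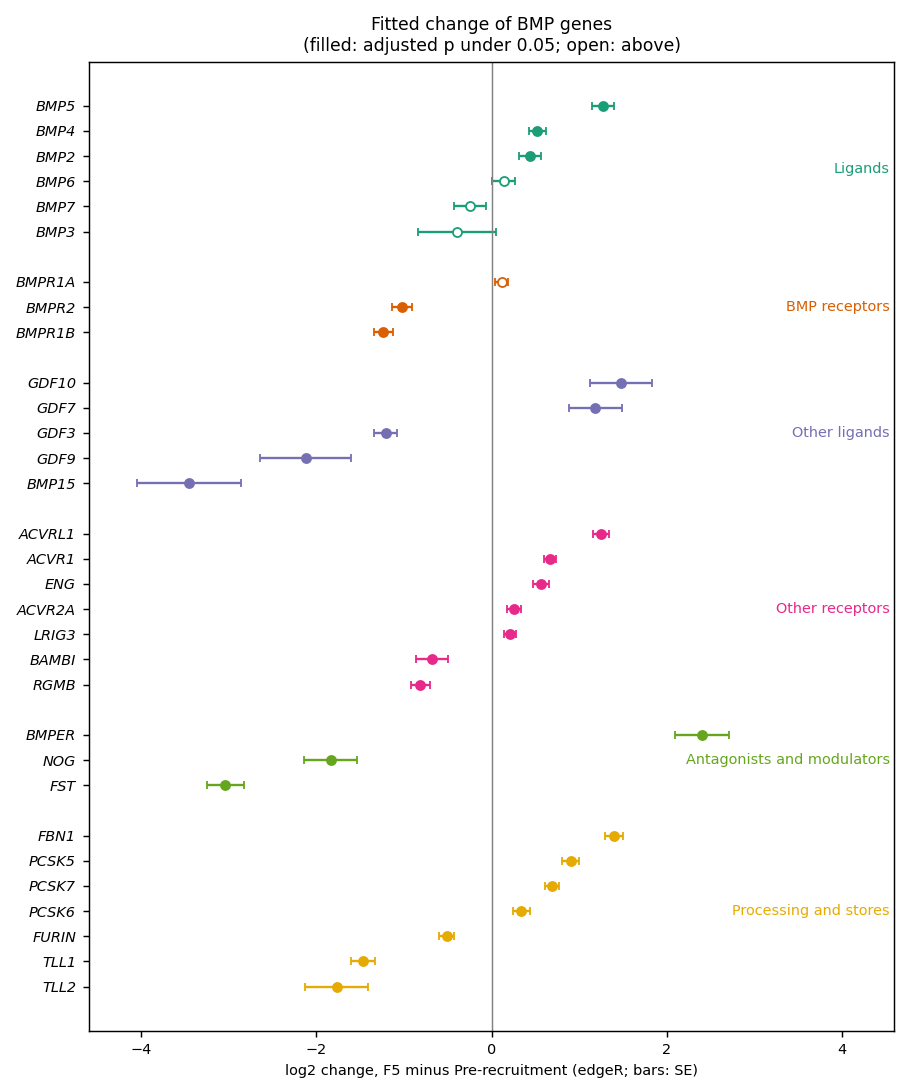
Fitted log2 change, F5 minus Pre-recruitment (horizontal axis), with its SE for the 9 tested BMP ligands and receptors and for pathway genes named in the text in 4 groups; filled points passed an edgeR adjusted p of 0.05 and open points did not. BMP5 and ACVRL1 lie near 1.27 and 1.25, BMPR1B and BMPR2 near -1.24 and -1.02, and FST and BMP15 at -3.04 and -3.46.

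Other receptors and co-receptors gave 5 rises and 2 falls among 12 tested, against 65.5% of all genes called. ACVRL1, the type I receptor of endothelial cells also known as ALK1, rose 2.38-fold from 21.2 ± 3.04 to 50.4 ± 4.17 CPM (n = 6, SD, log2 change 1.25, SE 0.10, adjusted p = 1.24e-07 by edgeR) with no overlap of stages. ENG, its co-receptor endoglin, rose 1.48-fold in 6 of 6 birds. In the same libraries endothelial markers, in sum, were at 616 to 718 CPM and 680 to 758 CPM. ACVR1, a type I receptor that BMP6 and BMP7 can use, rose 1.59-fold from 139 ± 13.8 to 221 ± 10.9 CPM (n = 6, SD, adjusted p = 1.46e-06 by edgeR) in 6 of 6 birds. The type II receptor ACVR2A, which BMPs share with activins, rose 1.197-fold and LRIG3 1.16-fold, but under library totals ACVR2A stood at 0.03 and LRIG3 at -0.019 on the log2 scale, neither past the threshold. Without both libraries of bird 5826 or 5840 ACVR2A missed the threshold too (adjusted p = 0.0525 by edgeR and 0.0535). LRIG3 missed it without bird 5802 (0.053) or 5826 (0.0703) and without the Pre-recruitment library of bird 5802 (0.0587) or 5810 (0.0659), all edgeR adjusted p-values. The fallers were the co-receptor RGMB (1.76-fold) and the decoy receptor BAMBI (1.60-fold, log2 change -0.68, or -0.45 without bird 5802).

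Secreted antagonists and modulators had 8 members higher and 7 lower in F5 follicles of 20 tested, where 65.5% of all genes were called. FST, which binds activins and, less tightly, BMPs, fell 8.22-fold from 264 ± 62.0 CPM to 32.2 ± 10.05 CPM (mean ± SD, n = 6). NOG, which sequesters BMP2, BMP4 and BMP7, fell 3.57-fold from 15.3 ± 2.08 to 4.28 ± 2.10 CPM (n = 6, SD, adjusted p = 1.24e-04 by edgeR). Its F5 libraries formed a low pair, birds 5802 (1.65 CPM) and 5817 (1.57 CPM), and 4 others at 5.07 to 6.14 CPM, and that pair also had the lowest granulosa marker sums of the stage (566 and 627 CPM). Granulosa markers fell in the same libraries as FST and NOG. Before recruitment, however, FST was highest in birds 5810 and 5817 (346 and 342 CPM) and NOG in bird 5817 (19.1 CPM). Those birds had the lowest granulosa sums of that stage (1752 and 1876 CPM).

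BMPER, an extracellular protein that binds BMPs and can dampen or promote their signals, rose 5.30-fold. It ran from 2.77 through 4.95 to 7.68 CPM before recruitment and from 15.5 through 25.2 to 43.0 CPM in F5 follicles, so its stages did not overlap (log2 change 2.41, SE 0.31, adjusted p = 1.41e-05 by edgeR). Birds 5810 and 5835 were the highest in both stages, and their F5 libraries also had the highest smooth muscle marker sums (29344 and 24702 CPM). The other 7 risers of the group ran from a log2 change of 0.42 (CRIM1) to 1.36 (CHRDL2) and the log2 changes of further fallers included -0.24 (NBL1) and -1.14 (FSTL4). These 4 genes were named after their values were seen.

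**Figure D4:**
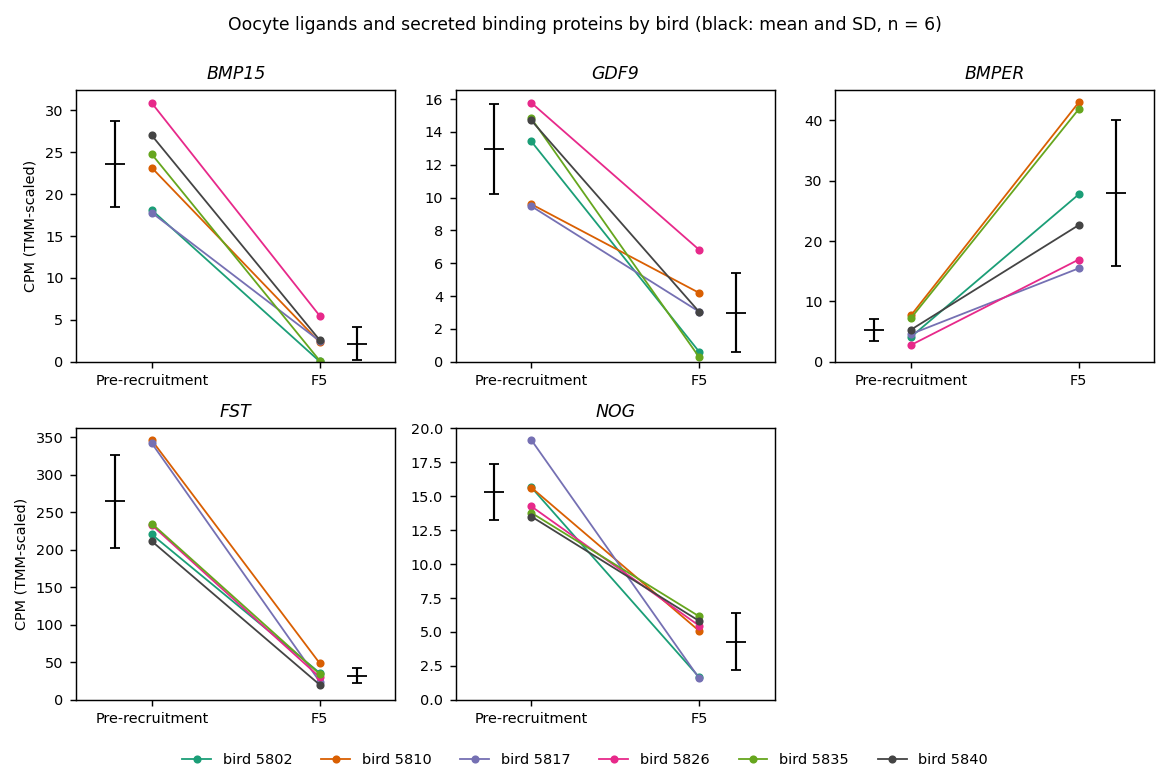
TMM-scaled CPM (vertical axes, starting at 0) of the oocyte ligands BMP15 and GDF9 and of 3 secreted binding proteins in the Pre-recruitment and F5 follicle of each bird, with 1 coloured line per bird and the mean and SD of 6 libraries in black. BMPER is higher and the other 4 genes are lower in the F5 follicle of every bird, and NOG in F5 follicles of birds 5802 and 5817 lies at 1.65 and 1.57 CPM, below the other 4.

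Processing enzymes and matrix stores of BMPs split 4 higher and 3 lower of 8 tested, with 32.9% of all genes higher and 32.6% lower. The proprotein convertases, which cut BMP precursors, did not move together: PCSK5 rose 1.87-fold, PCSK7 1.61-fold and PCSK6 1.27-fold, while FURIN fell 1.43-fold from 123 ± 13.8 to 86.3 ± 8.81 CPM (n = 6, SD, adjusted p = 1.10e-04 by edgeR). With library totals PCSK6 did not pass (adjusted p = 0.393 by edgeR). TLL1 and TLL2, tolloid proteases of the kind that cleave CHRD, fell 2.77-fold and 3.41-fold. FBN1, a microfibril protein that holds BMP complexes in the matrix, rose 2.64-fold from 705 ± 85.8 to 1865 ± 217 CPM (n = 6, SD, adjusted p = 9.93e-08 by edgeR), and all 7 stroma markers rose in the same libraries. Within F5, however, bird 5826 had the highest stroma sum (51424 CPM) and the lowest FBN1 (1609 CPM). FBN1 was highest in bird 5817 (2140 CPM), whose stroma sum was 40769 CPM.

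Of 10 tested SMADs and SMAD regulators 5 rose and 2 fell, a share called near the 65.5% of all genes. SMAD6, an inhibitory SMAD, rose 1.91-fold (adjusted p = 6.83e-06 by edgeR), and SMURF1, SMAD9, PPM1A and SKIL rose by 0.52, 0.50, 0.49 and 0.31 log2 units. SMAD9 and SKIL missed the threshold under library totals. SMAD7B, described above, and SMAD1 (-0.22 log2 units) fell, and SMAD1 missed the threshold in 7 of 18 settings that left out a library or a bird. They were the Pre-recruitment library of bird 5817, the F5 libraries of birds 5802, 5810 and 5835, and both libraries of birds 5802, 5810 and 5835, with an adjusted p of up to 0.0979 by edgeR. Of 10 tested genes known as BMP targets in other cells 5 rose and 2 fell, also near that 65.5%. ATOH8, ID1 and ID3 rose 2.80-fold, 2.32-fold and 2.24-fold in 6 of 6 birds, ID2 rose 1.63-fold in 5 birds and ID4 1.42-fold in 6. With library totals ID4 did not pass (adjusted p = 0.136 by edgeR), nor without bird 5826 (0.0581). The homeobox gene MSX1 fell 4.68-fold and the T-box gene TBX20 13.3-fold. TBX20 had 46 to 216 counts per Pre-recruitment library but only 4 to 12 per F5 library, so the size of its fall is imprecise.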

How the data were processed

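Poly-A RNA libraries of 12 follicles were sequenced with Illumina chemistry, per the labels' protocols. Expected counts, also called estimated counts, were deposited by the authors as one table with a row per gene symbol and no normalisation, and the labels name kallisto as their source. The submitters' processing notes list kallisto 0.44.0, bcl2fastq 2.19, DESeq2 1.38.3, DESeq 0.99.484 and the builds GRCg6a and galGal6, but not what each was used for. The labels do not state how transcript values became gene values. kallisto divides reads of similar genes by estimation, so levels of paralogs are uncertain to that extent. Values were whole, and rounding changed 0 of them. The row with a blank name, 6.24 to 9.79% of counts per library, was left out.

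Counts were analysed with edgeR 4.0.16 in R 4.3.3: filterByExpr by stage (minimum count 10), TMM, robust quasi-likelihood fit with stage as the only term, Benjamini-Hochberg over 11195 genes at 0.05. An SE is the log2 change divided by the square root of F, and intervals use the fit's degrees of freedom. Log2 CPM uses a prior count of 2, and ratios add 0.5 to each count. Libraries of 1 stage differed far beyond sampling noise (chi-square per degree of freedom of at least 23.5), so none repeats another. Whether bird differences include technical ones cannot be told apart, with 1 library per follicle. The birds pair the stages by animal, and deviations from stage means correlated at 0.13 to 0.39 within birds and -0.30 to 0.30 between birds, across genes, which are not independent. The block on birds, DESeq2 1.42.0 and other alternatives are given below. On simulated counts for this comparison (11153 genes) the code recovered 66.7%, 92.3% and 98.5% of genes changed 1.5-fold, 2-fold and 4-fold, with 3.45% false calls. The simulation changed few genes (66, 65 and 65 at these folds), in random directions, and had no bird effects. In the data 65.5% of genes were called, so these rates need not hold for them. Errors of scaling between the stages were not simulated.

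The members and gene lists were chosen with earlier results of these data known. Named pathway genes are, per group, the 4 largest changes past the threshold and every gene of a direction with 5 or fewer calls. Profile neighbours are the 3 nearest genes (mean log2 CPM 2 or more) for 3 members. These are the members with the largest changes among those past the threshold and with a mean log2 CPM of 2 or more. Symbols of 10 pathway genes (BMP8A, BMP8B, GDF11, MSTN, HFE2, DAND5, KCP, BMP1, SMAD4 and SMAD7) were not matched in the table and were not analysed here. BMP10, GDF5, GDF6, HJV, CER1 and DLX5 did not pass the filter. Promoter motifs were not analysed here. Individual values of some listed genes are not reported here, though the counts and sums include them. RefSeq symbols (GRCg7b) matched all 10 members and were used for names and overlaps of annotated spans only.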

Additional observations from a re-analysis of the deposited data

Results flagged for a closer look

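Each stage's 6 values of every named gene and ratio were examined for a library far from the rest, 106 groups in all, and 2 stood out, where chance alone flags about 1 in 20 groups. The Pre-recruitment follicle of bird 5802 had 192 CPM of BMPR2, and its gap to the next library took 0.788 of the stage's range. The F5 follicle of the same bird had a log2 ratio of BMP4 to GREM1 of 8.20, with a gap of 0.738 of the range.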

How the results depend on the processing

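Of 310 combinations of a BMP gene and an alternative (scaling, filter, DESeq2, the bird as a block, each library and each bird left out), 306 kept direction and side of the threshold, 3 changed sign and 1 lost its call. Scaling by library totals turned BMP6 to -0.092 and BMPR1A to -0.12, neither called in any of these settings, and ended the call of BMP2 (0.20). Leaving out libraries or birds moved BMP6 between -0.0036 (without bird 5840) and 0.24. Among pathway genes, library totals turned LRIG3 to -0.019. They moved the count of genes higher in F5 follicles from 3681 to 2071, with 5200 lower in place of 3652, so higher calls made up 28.5% in place of 50.2%. With the bird as a replicate block, 7711 genes were called in place of 7333 and no BMP gene changed its call. Among pathway genes, NEO1 (adjusted p = 0.0315 by edgeR), FSTL5 (0.00522) and VWC2 (0.0293) passed in addition to GDF2, and no other call changed. For the ratio of BMPR1B to BMPR2 the block by sign changes gave -0.23 (exact adjusted p = 0.0312), and leaving out birds gave -0.27 to -0.16 (0.0476 without bird 5802). The causes were not tested. Depth limits BMP3 and GREM1.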
